A study of Triticum aestivum with 161 samples.

Results

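The 150 most abundant grain transcripts on the array were described in developing wheat caryopses, the young grains, sampled 21 days after anthesis during grain filling. The members were chosen by their mean signal. They are the 150 probe sets with the highest mean log2 signal over all 161 arrays. The choice was among the 61178 probe sets whose IDs do not start with AFFX. The ID of the member RPTR-Ta-X03453-2_s_at gives no cluster number, and it may be a control of the array rather than a grain transcript. Before the choice, 40 probe sets were set aside by 14 ID prefixes that cover major gliadins, avenin-like proteins, serpins and starch synthesis genes, and 18 of these had means above the limit. The choice used the mean signal only, so the level of a member is a description, whereas differences between groups of arrays were not used to choose it. The mean pooled all groups, however. A probe set low in few cultivars could enter through the others, whereas one high in few cultivars could hardly enter.

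The arrays came from plots of 6 wheat cultivars (Cordiale, Hereward, Istabraq, Malacca, Marksman and Xi_19), with 27 arrays for each cultivar except Malacca, which had 26. Nitrogen was supplied at 100, 200 or 350 kg per ha, here N100, N200 and N350. The site RAGT gave 18 arrays in each of 2010 and 2011, all at N200, and Rothamsted gave 53 arrays in 2009 and 54 in 2010 over all 3 levels, and 18 in 2011 at N200. Cultivar, nitrogen level, site and year made 54 groups, 53 with 3 arrays and 1 (Malacca at N200, Rothamsted 2009) with 2.

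A caryopsis at this age consists mostly of starchy endosperm, which fills with starch and with storage proteins such as the gliadins and glutenins that later form gluten. The same tissue makes small cysteine-rich proteins of defence: thionins, which damage microbial membranes, and inhibitors of the amylases and proteases of insects and of the grain itself. Nitrogen supply to the crop is known to raise grain protein, and the sulphur-poor storage proteins respond more than others. Levels were measured in whole caryopses, so fewer cells of a type and less RNA per cell cannot be told apart in any difference given here.

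Endosperm genes gave strong signal. Of 18 probe sets named for endosperm genes, 16 had a mean of at least 10, against 2 of 12 for embryo and aleurone genes. Arrays differed in how far they strayed from their group means. This distance, a root mean square over the probe sets whose mean reached 6, lay between 0.072 and 0.34 and passed 0.3 on 5 arrays, all from Rothamsted in 2009. The Malacca RAGT 2010 replicate 1 array stood apart, with a mean over the members of 13.60 and a highest value of 14.75, against 14.91 for the next lowest maximum of that environment. Without the 5 arrays 84 members passed the test for N350 against N100, and without the Malacca array 85, against 83 with all arrays. The shares over all probe sets in these refits are not given. Array medians moved with the season, between 5.22 and 5.33 over the sites in 2010 and between 5.37 and 5.47 in 2009 and 2011. The difference of 3′ over 5′ signal of the actin control, a measure of RNA integrity, averaged 0.11 to 0.34 in 2009 and 2010 at N200 and 0.49 to 0.54 in 2011. That of the GAPDH control was -3.13 in 2009, -2.86 to -2.81 in 2010 and -2.59 to -2.56 in 2011, and that of the EF1a control was -0.39, -0.72 to -0.58 and -0.37. From 2010 to 2011 each of these controls rose at both sites. Between 2009 and 2010 at Rothamsted the controls did not move together, since GAPDH rose while actin and EF1a fell. Their part in the season differences was not tested.

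Few of the members can be named. The array's annotation paired 47 of them with 1 gene each (37 genes), gave none for 103, and 21 probe sets carried a symbol that names a protein. These 21 stand for 15 genes. They include the thionins THI1.1, THI1.2 and THI1.3, also known as purothionins, and the type V thionin TTHV. ATI is an alpha-amylase and trypsin inhibitor with 4 probe sets, and WMAI-1 is a monomeric alpha-amylase inhibitor. Others are LTP3, a lipid transfer protein, the gamma gliadin GAG56D, a storage protein, and XIP-I, an inhibitor of fungal xylanases. The translationally controlled tumour protein TCTP, the actin-binding profilin PRO1 and the alpha tubulin TUBA are general cell proteins. The last are rbcl, the large subunit of Rubisco encoded in the plastid, and wci, whose role is left out here.

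Both rbcl members had means of 14.65 (Ta.24976.1.S1_x_at) and 14.63 (TaAffx.128414.1.A1_x_at). Over the 31 probe sets with names of photosynthesis genes the median mean was 3.92, and only 4 of them reached 10. The other rbcl probe sets of the array lay between 2.38 and 7.69.

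The top of the list was crowded by related probe sets. By the cluster number in the ID, 26 clusters held over 1 member, and Ta.23142 alone held 8. The suffix x_at, given to probe sets with probes that also match other sequences, was carried by 46.7% of members and by 11.1% of all probe sets. The suffixes s_at and a_at, for probe sets shared by several transcripts, were carried by a further 20 and 17 members. Such probe sets can gather signal from several copies of a gene, and bread wheat carries several related genomes.

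The 10 highest means were those of Ta.23142.4.S1_s_at (14.96), Ta.23142.6.S1_x_at (14.95), Ta.27778.4.S1_x_at (14.94), Ta.23967.1.S1_s_at for THI1.1 (14.79) and Ta.30756.1.S1_x_at (14.74), then Ta.23798.1.S1_s_at for ATI (14.73), Ta.23142.8.S1_x_at (14.71), Ta.23142.10.S1_x_at (14.71), Ta.23142.1.S1_x_at (14.68) and Ta.23141.1.S1_at (14.66). Just inside the limit stood Ta.9999.1.S1_at (13.16), TaAffx.106302.1.S1_x_at (13.15) and Ta.1272.1.S1_at (13.15). Just outside stood Ta.19269.1.S1_at (13.15), Ta.1480.2.S1_a_at (13.14) and Ta.6835.1.S1_at (13.14), so the limit separates no distinct class. Signals of different probe sets depend on their probes, and the order is that of signal and not of molecules.

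The ceiling is here the highest value of an array, averaged over arrays, and not a known limit of the signal. The highest value on any array was 15.06, the highest value of each array averaged 14.99, and only 4 probe sets ever held that place. These were Ta.27778.4.S1_x_at on 65 arrays, Ta.23142.6.S1_x_at on 43, Ta.23142.4.S1_s_at on 41 and Ta.24114.1.S1_x_at, a gliadin set aside by its prefix, on 12. Of the members, 29 had a mean within 0.5 of the average maximum and 59 within 1. Members were chosen by a high mean, so their nearness to the maximum follows from the choice. In all, 30 members stayed above 14 and 87 above 13 on every array, while 8 fell under 12 on some array. The array maximum moved with the season. Its median was 15.03 at Rothamsted in 2009, 14.94 at each site in 2010, 15.02 at RAGT in 2011 and 15.03 at Rothamsted in 2011. No maximum at Rothamsted in 2010 was above 14.97, and none in 2009 was below 14.99.

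Spread narrowed towards the ceiling. Over the 25 highest members the SD among arrays of one group had a median of 0.048, and the SD of the 54 group means a median of 0.067. For ranks 76 to 100 these were 0.14 and 0.26, and for ranks 101 to 150 they were 0.12 and 0.17. Probe sets ranked 151 to 300 had 0.14 and 0.23. The ranges over cultivars and the nitrogen differences were smaller there too. The median range over cultivars was 0.075 for the 25 highest members and 0.23 for ranks 76 to 100, and the median size of the nitrogen difference was 0.033 against 0.071. The difference between 2010 and 2009 did not follow rank in this way. Its median size was 0.079 for the 25 highest members, 0.053 for ranks 51 to 75, 0.14 for ranks 76 to 100 and 0.079 for ranks 101 to 150. The array maximum at Rothamsted also differed between these seasons, with medians of 14.94 in 2010 and 15.03 in 2009. Its part in the season difference of the highest members was not tested. Probe sets near the top of the measured range are known to give compressed differences, and whether saturation contributed here was not tested.

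**Figure D1:**
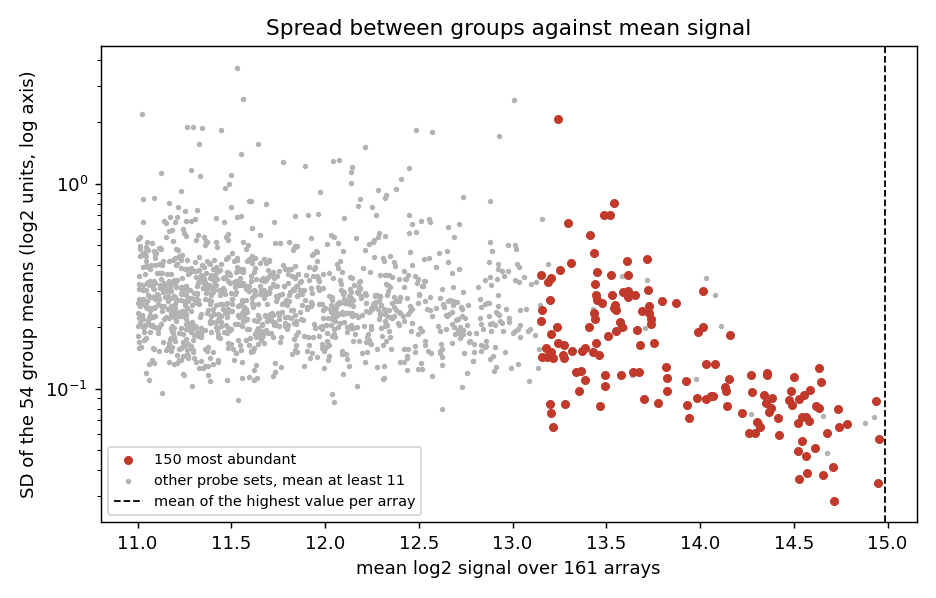
Each point is 1 probe set with a mean log2 signal of at least 11. The horizontal axis is its mean over 161 arrays, the vertical axis (log scale) is the SD of its 54 group means in log2 units, red points are the 150 members, and the dashed line is the average highest value per array, 14.99. The members spread from 0.028 to 2.06 and narrow towards the line, and 1 point stands far above the rest, Ta.23142.5.S1_x_at.

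The steadiest members by SD of group means were Ta.23142.8.S1_x_at (0.028), Ta.23142.6.S1_x_at (0.035), Ta.14625.1.S1_x_at (0.036), Ta.23141.1.S1_at (0.038) and Ta.23141.3.S1_x_at (0.039). The lowest of their means was 14.53. The widest were Ta.23142.5.S1_x_at (2.06), Ta.27780.1.S1_x_at (0.81), Ta.5839.1.S1_at (0.70), Ta.5839.1.S1_x_at (0.70) and Ta.28209.1.S1_a_at (0.64). The highest of their means was 13.54. The median over the members was 0.12, against 0.23 for ranks 151 to 300 and 0.24 for all probe sets whose mean reached 6.

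At N200 the variance shares of environment (site and year together), cultivar and their interaction were ranked, leaving out the spread between arrays of a group. Of these, environment was the largest for 113 members, cultivar for 24 and the interaction for 13. Its median share was 43.4% of the sum of squares over the members, beside 13.3% for cultivar, 13.9% for the interaction and 22.1% between arrays of a group. For ranks 151 to 300 the environment took 63.3%. At Rothamsted in 2009 and 2010, where nitrogen varied, nitrogen took a median of 6.89% over the members and 2.33% over all probe sets whose mean reached 6. Ta.6175.1.S1_x_at had the largest nitrogen share of the members, 64.7%.

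More nitrogen moved many of these transcripts by small amounts, mostly downwards. Of the 150 members, 83 differed between N350 and N100 (limma, adjusted p under 0.05, both seasons and 6 cultivars averaged), 29 higher and 54 lower at N350. Over all probe sets 23.0% passed, 10.7% higher and 12.3% lower. Over those whose mean reached 6 the share was 32.1%, with 8.89% higher and 23.2% lower. Of the probe sets ranked 151 to 300, 67 of 150 passed, 22 higher and 45 lower. The tilt downwards was thus not particular to the members. The median difference over the members was -0.029 on the log2 scale, and -0.033 over probe sets whose mean reached 6. Only 1 member passed with a difference of at least 1.5-fold, and 27 members passed while moving one way in every cultivar of both seasons, 12 strata in all, as did 2.79% of all probe sets.

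The member that rose most was Ta.23896.1.S1_at, which has no gene name. Its signal ran from 12.79 through a median of 13.70 to 14.22 at N350, against 12.14, 13.02 and 13.47 at N100. The difference was 0.65 (SE 0.036, adjusted p = 5.24e-31 by limma), or 1.57-fold and was positive in 12 of 12 strata of cultivar and season. In 2010 the groups did not overlap, with 13.61 to 14.22 at N350 against 12.74 to 13.47 at N100. In 2009 they did, with 12.79 to 13.91 at N350 against 12.14 to 13.34 at N100.

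Ta.6175.1.S1_at followed, with 13.43, a median of 13.85 and 14.07 at N350 against 12.74, 13.33 and 13.86 at N100. Its difference was 0.52 (SE 0.029, adjusted p = 5.24e-31 by limma), and its companion Ta.6175.1.S1_x_at, from the same sequence, gave 0.51. The spread among its arrays was wider at N100 than at N350, with an SD of 0.12 at N350 and 0.24 at N100 (36 arrays each). Both Ta.6175 probe sets were the only members whose nitrogen response passed the test for a difference between cultivars, with adjusted p = 0.034 for Ta.6175.1.S1_at and 0.030 for Ta.6175.1.S1_x_at (limma F test). The response of Ta.6175.1.S1_at was 0.78 in Hereward, 0.70 in Malacca, 0.50 in Marksman, 0.45 in Istabraq, 0.39 in Xi_19 and 0.28 in Cordiale. Over all probe sets 0.0212% passed that test, and the count of 2 members was unstable. It was 10 without the 5 arrays of high deviation, 0 with array medians centred or with only the compared arrays, and 12, 0 and 0 with replicate 1, 2 or 3 left out. For these refits the shares over all probe sets are not given.

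The cluster Ta.28312 moved both ways. Ta.28312.1.S1_at lay at 13.23, a median of 13.77 and 13.99 at N350 against 12.08, 13.31 and 13.69 at N100, a difference of 0.47 (SE 0.042, adjusted p = 5.67e-17 by limma). Ta.28312.2.S1_x_at lay at 13.03, 13.82 and 14.15 at N350 against 13.22, 14.07 and 14.60 at N100, a difference of -0.32 (SE 0.042, adjusted p = 1.35e-09). The response of Ta.28312.2.S1_x_at was -0.0088 in Cordiale and -0.59 in Istabraq, although the test between cultivars was not passed (adjusted p = 0.075).

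Among the members that fell, Ta.10170.1.S1_at, listed as wci, changed most. Its signal was 11.64, a median of 13.32 and 14.02 at N350 against 13.18, 13.82 and 14.18 at N100, a difference of -0.52 (SE 0.043, adjusted p = 8.64e-19 by limma). TaAffx.42864.3.S1_x_at differed by -0.43 (SE 0.052) and Ta.1411.1.S1_s_at by -0.32 (SE 0.037). Neither has a gene name, and both fell in 12 of 12 strata. The ranges of the groups overlapped for these members.

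**Figure D2:**
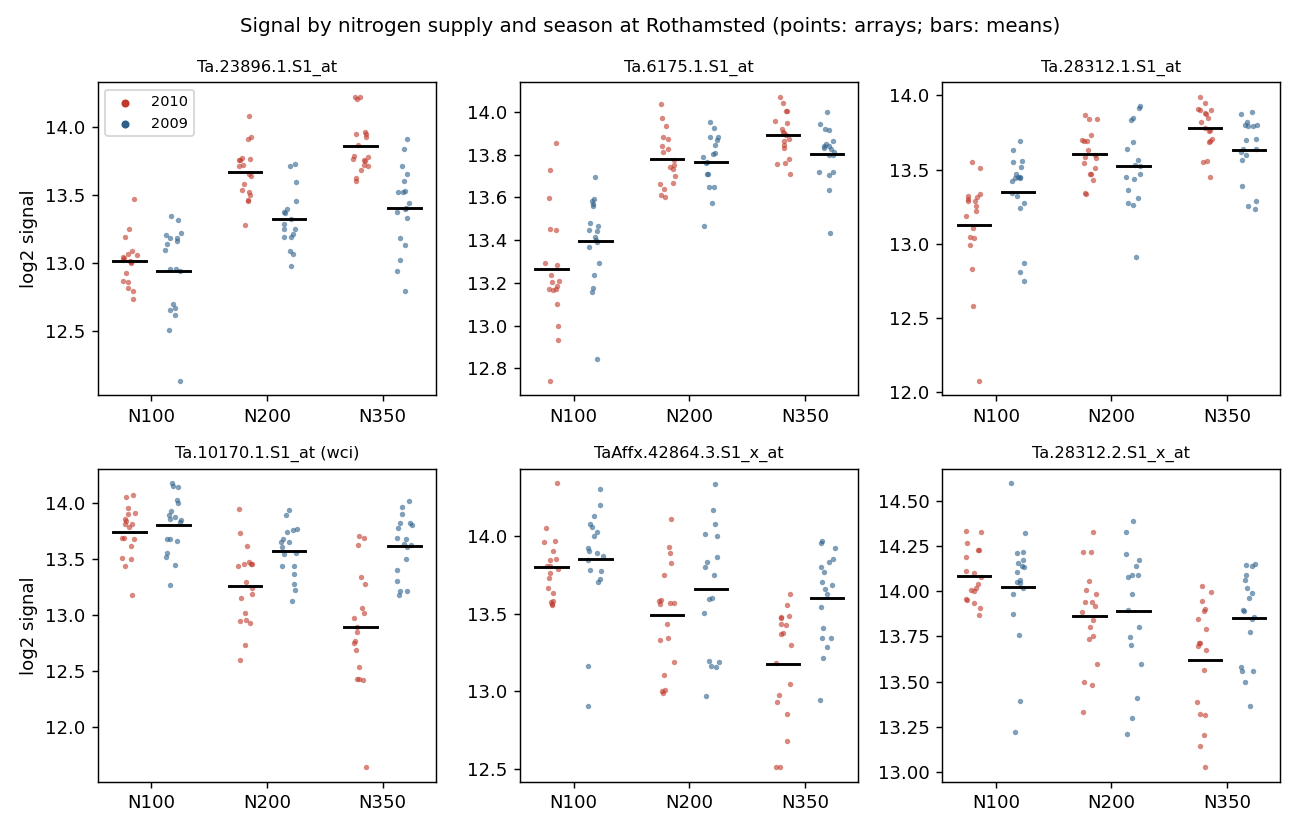
Log2 signal (vertical axis) of 6 members at Rothamsted by nitrogen level (horizontal axis), with 1 point per array, 2010 in red to the left of 2009 in blue, and black bars for means of 17 or 18 arrays. The upper row rises with nitrogen and the lower row falls, and the differences between the means at N350 and N100 are larger in 2010. In Ta.10170.1.S1_at the mean at N350 was 12.89 in 2010 and 13.62 in 2009.

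Of the members named by role, the gliadin rose and the amylase and trypsin inhibitors fell. GAG56D (Ta.30782.4.S1_at) measured 13.82, a median of 14.15 and 14.31 at N350 against 13.63, 13.95 and 14.11 at N100, a difference of 0.22 (SE 0.019, adjusted p = 6.37e-17 by limma) in 12 of 12 strata. It is the only member named as a gliadin or glutenin, and 12 of the 14 such named probe sets on the array were set aside by their prefixes. All 5 probe sets of amylase and trypsin inhibitors fell, as did 3 of the 6 thionin probe sets, and the other 3 thionin probe sets did not pass. These members are near the ceiling, and their differences were small. In the fit of all arrays, the inhibitor and thionin probe sets that fell passed within 2010. None of them passed within 2009, where their differences were negative too but smaller. GAG56D passed within each of these seasons.

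Among the inhibitors, ATI gave -0.14 (Ta.23798.1.S1_at, SE 0.016), -0.13 (Ta.58.1.S1_at), -0.12 (Ta.817.1.S1_a_at) and -0.092 (Ta.23798.1.S1_s_at), and WMAI-1 gave -0.043 (SE 0.016, adjusted p = 0.036 by limma). Ta.23798.1.S1_at lay at 14.02, a median of 14.57 and 14.79 at N350 against 14.55, 14.67 and 14.82 at N100, so the groups overlapped. THI1.1 gave -0.060 and -0.045 with its probe sets, and THI1.3 gave -0.076 with Ta.1308.1.S1_at (adjusted p = 0.045) but did not pass with Ta.1308.1.S1_x_at (-0.036). THI1.2 (-0.039, adjusted p = 0.11) and TTHV (0.024, adjusted p = 0.74) did not pass. LTP3 fell by 0.055 on the log2 scale.

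The general cell proteins fell too. TUBA, an alpha tubulin, differed by -0.17 (SE 0.022), TCTP by -0.10 (SE 0.016) and profilin by -0.099 (SE 0.015), all past the threshold by limma. Neither XIP-I probe set passed (0.057 and 0.047), nor did either rbcl probe set (0.0032 and -0.012). The lists for beta-amylase, histones and LEA proteins had no member. Those for avenin-like proteins, serpins and starch synthesis could have none, since all their probe sets were set aside by prefix.

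**Figure D3:**
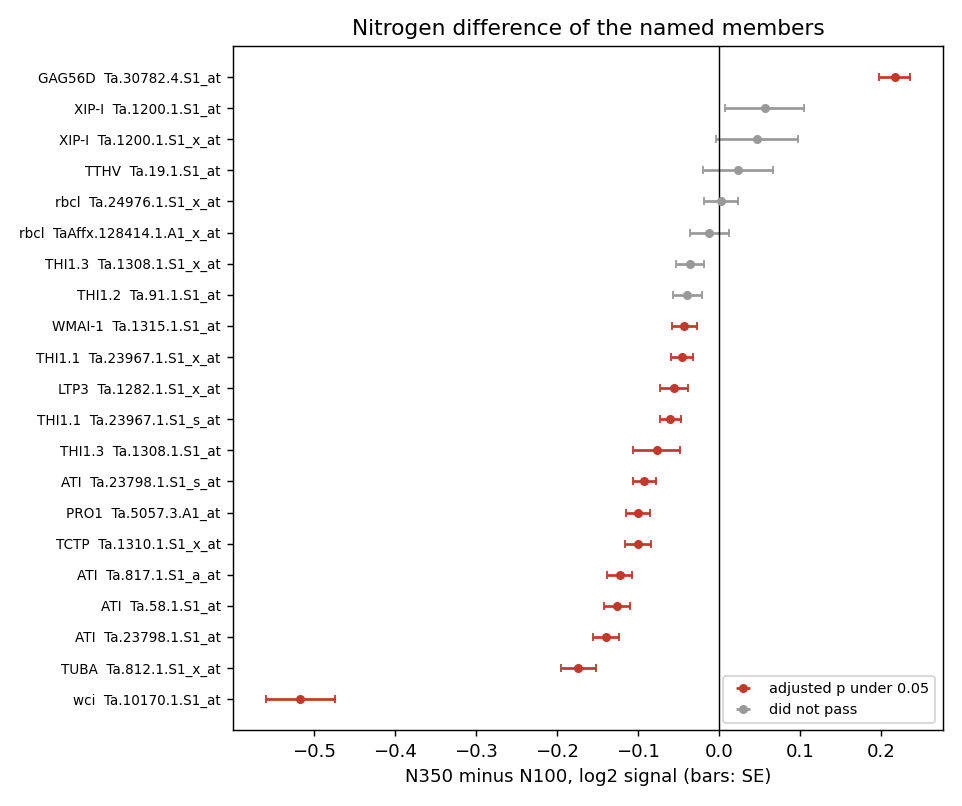
Difference of N350 minus N100 in log2 signal (horizontal axis) for the 21 members with a protein name, 1 row per probe set, as points with bars of 1 SE. Red points passed an adjusted p of 0.05 and grey points did not. GAG56D at 0.22 is the only named member that passed with a higher signal at N350. The value of wci, -0.52, lies far from the others, which stay within -0.17 to 0.057.

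More members passed for the step between N100 and N200 than for the step to N350. At N200 against N100, 77 members passed, 27 higher and 50 lower at N200. Over all probe sets 14.9% passed, 6.58% higher and 8.32% lower. Over those whose mean reached 6 the share was 22.0%, with 5.86% higher and 16.1% lower. At N350 against N200 no member passed by limma, where 0.0376% of all probe sets did, and 31 members had an unadjusted p under 0.05, as did 6.27% of all probe sets and 25 of those ranked 151 to 300. Ta.23896.1.S1_at had medians of 13.02, 13.50 and 13.70 at N100, N200 and N350, and GAG56D 13.95, 14.11 and 14.15. Leaving out replicate 1 brought 8 members past the threshold for N350 against N200, array weights 1 member, and 2010 taken alone 3. These refitted counts have no share over all probe sets beside them, so they do not show whether the members stand apart.

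The nitrogen response differed between seasons in 17 of 150 members, where 0.69% of all probe sets passed. Over probe sets whose mean reached 6 the share was 1.37%, and of those ranked 151 to 300, 12 of 150 passed. Passing this test was thus not particular to the members. The difference of the responses, 2010 minus 2009, was positive in 6 members (0.302% of all probe sets) and negative in 11 (0.387% of all). The response of Ta.23896.1.S1_at was 0.85 in 2010 and 0.46 in 2009, and that of Ta.28312.1.S1_at was 0.66 in 2010 and 0.29 in 2009. The response of wci was -0.84 in 2010 and -0.19 in 2009, and that of Ta.1411.1.S1_s_at was -0.48 in 2010 and -0.15 in 2009. In the fit of all arrays 83 members passed within 2010 and 18 within 2009, where 20.0% and 1.79% of all probe sets passed. With each season fitted on its own, 73 members passed in 2010 and 5 in 2009, where 17.5% and 0.394% of all passed. The 5 arrays of high deviation were all from 2009. Leaving out replicate 2 or replicate 3 brought the count of 17 down to 1 each, with no share over all probe sets set beside it.

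Cultivars differed in most members, but by little in all but a few. The moderated F test of limma over the 5 environments at N200 passed for 110 members, where 46.5% of all probe sets and 67.7% of those whose mean reached 6 passed. The range of the 6 cultivar means was under 0.2 in 102 members, under 0.5 in 138, and at least 1 in 6 members. Leaving out a replicate lowered the count to between 66 and 77, with no share over all probe sets set beside it.

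Ta.23142.5.S1_x_at had the widest range, 4.52 on the log2 scale (adjusted p = 2.93e-32). At N200 its mean was 14.79 ± 0.053 in Marksman, 14.78 ± 0.053 in Cordiale, 14.76 ± 0.097 in Malacca and 14.04 ± 1.2 in Istabraq, but 11.03 ± 1.47 in Hereward and 10.26 ± 1.64 in Xi_19 (SD, 14 arrays of Malacca and 15 of each other cultivar). The arrays of Marksman, Cordiale and Malacca lay close to the ceiling, and those of Hereward and Xi_19 were scattered over several units. Over all levels of nitrogen, 7 of 27 Hereward arrays and 4 of 27 Xi_19 arrays reached 12, as did 26 of 27 Istabraq arrays and every array of the other cultivars.

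Replicates of a group disagreed in these cultivars. The replicates of Hereward at N200 from Rothamsted 2011 gave 14.20, 13.64 and 10.04, those of Xi_19 at N200 from Rothamsted 2011 gave 9.42, 10.38 and 14.03, and those of Istabraq at N200 from RAGT 2011 gave 14.51, 9.98 and 13.12. The 4 Xi_19 arrays that reached 12 here, at 14.03, 13.78, 13.23 and 12.53, had 12.42, 12.02, 12.17 and 11.47 in Ta.27780.1.S1_x_at, the member that separates Xi_19 from the others. Among the 27 Xi_19 arrays these were in places 1, 5, 2 and 23 from the top, and all were below 13.55, the lowest N200 array of any other cultivar. The other 7 Ta.23142 members had cultivar ranges of 0.026 to 0.17.

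Ta.27780.1.S1_x_at was low in Xi_19 alone of the 6 cultivars. Its 15 Xi_19 arrays at N200 ran from 11.47 to 12.42, and the arrays of the other cultivars from 13.55 to 14.15, so the groups did not overlap. The range of cultivar means was 2.12 (adjusted p = 4.27e-84 by limma F test), and cultivar took 96.4% of the variance. The other 3 members of the Ta.27780 cluster had ranges of 0.11 to 0.22. None of the Ta.23142 or Ta.27780 members has a protein name in the annotation used.

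Ta.1411.1.S1_s_at separated the cultivars into levels. It averaged 14.36 ± 0.073 in Marksman and 13.88 ± 0.17 in Malacca, and the means of Istabraq, Hereward, Xi_19 and Cordiale were 13.20, 13.18, 12.94 and 12.93. Istabraq did not differ from Hereward, or Xi_19 from Cordiale, beyond their SDs of 0.13 to 0.19. TaAffx.106302.1.S1_x_at was low in Cordiale, with 11.81 to 12.63 over its arrays, while the lowest array of any other cultivar was at 12.78. Ta.1304.1.S1_at was highest in Malacca (14.03 ± 0.22), and its arrays there overlapped those of Hereward (13.60 ± 0.35).

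Ta.5839.1.S1_at had a range of cultivar means of 1.08, and its cultivars differed among environments. Hereward kept 13.93 ± 0.20 over the 5 environments, whereas Xi_19 had 12.85 ± 1.09 and Marksman 13.19 ± 1.11. In Rothamsted 2011 the group mean was 13.64 in Hereward and 11.86 in Xi_19, and in Rothamsted 2010 it was 14.16 in Hereward and 13.84 in Xi_19. Its companion Ta.5839.1.S1_x_at had a range of 1.03.

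**Figure D4:**
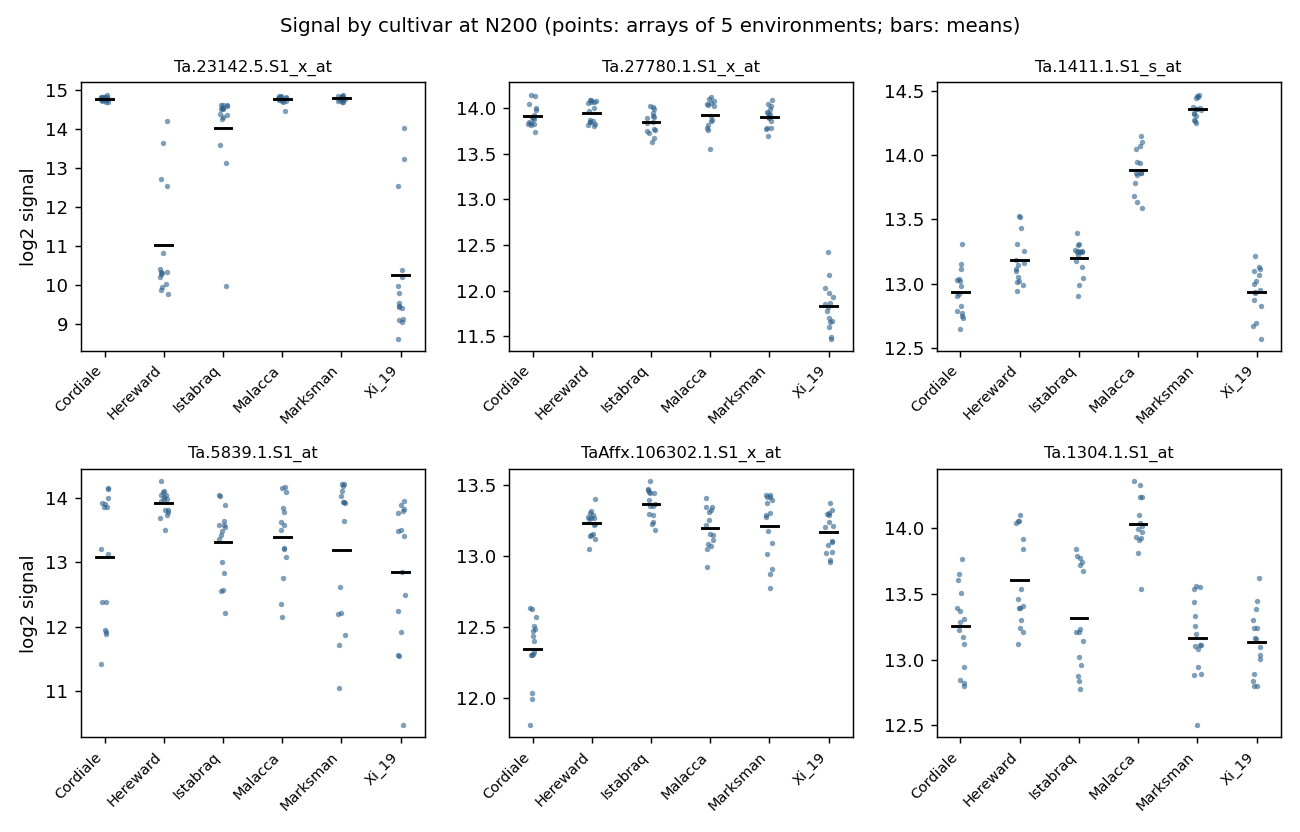
Log2 signal (vertical axis, a scale for each panel) of 6 members by cultivar at N200, with 1 point per array of 5 environments (14 arrays of Malacca, 15 of each other cultivar) and black bars for means. Ta.27780.1.S1_x_at is low in Xi_19, TaAffx.106302.1.S1_x_at in Cordiale, and Ta.23142.5.S1_x_at is low and scattered in Hereward and Xi_19.

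Members that carry a gene name, leaving out those with a locus number alone, ranged over 0.045 to 0.43 between cultivars, beside a median of 0.14 over all 150 members. Of those with a locus number alone, Ta.2799.1.S1_x_at reached 0.81. The widest range of a member with a gene name was that of wci, with 0.43 (adjusted p = 8.23e-08 by limma F test). The thionin probe sets ranged over 0.063 to 0.41, and 5 of 6 passed, the widest being TTHV with 13.96 in Hereward and 13.56 in Cordiale. The amylase and trypsin inhibitors ranged over 0.071 to 0.13, and 4 of 5 passed. LTP3 ranged over 0.20, with 14.24 in Istabraq and 14.04 in Cordiale, XIP-I over 0.33 to 0.35, GAG56D over 0.14 and TUBA over 0.16. Profilin (0.045, adjusted p = 0.29) and both rbcl probe sets did not pass. In all, 63 members passed for both cultivar and N350 against N100, where 13.7% of all probe sets did. Every member passed at least 1 of the tests made, as did 99.4% of all probe sets.

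Most members differed between seasons, and the balance of the directions depended on the scaling of the arrays. Between 2010 and 2009 at Rothamsted 103 members passed, 38 higher and 65 lower in 2010, where 81.3% of all probe sets passed, 18.1% higher and 63.2% lower. The median difference was -0.020 over the members and -0.15 over all probe sets. At Rothamsted 102 members passed between 2011 and 2010, 71 higher and 31 lower in 2011 where 85.1% of all probe sets passed, 71.3% higher and 13.8% lower. At RAGT 109 passed, 89 higher and 20 lower in 2011, where 82.3% of all passed, 70.7% higher and 11.6% lower. Fewer members passed at RAGT with the replicate number as a block, as the last section gives. The median over all probe sets was 0.32 at Rothamsted and 0.30 at RAGT, and over the members 0.058 and 0.081.

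With array medians centred, 96.3% of the members that passed were higher in 2010 than in 2009, against 36.9% as deposited, and 25.2% and 32.1% were higher in 2011 than in 2010 at Rothamsted and RAGT, against 69.6% and 81.7% as deposited. Quantile normalization of all arrays gave 41.3%, 48.6% and 44.0%. Passed with the same direction under all 3 scalings were 34 members higher and 5 lower in 2010 than in 2009, where 18.0% of all probe sets were higher and 27.6% lower. For 2011 against 2010 there were 32 higher and 31 lower at Rothamsted (37.3% and 13.8% of all), and 32 higher and 20 lower at RAGT (34.4% and 11.6% of all). The sign of the difference changed with the scaling in 91, 60 and 63 of the 150 members in these 3 comparisons. Large differences stood apart from this shift, and those named next kept their direction under all 3 scalings unless stated.

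The 2011 grain had less signal for a group of members that had been high in 2010. Ta.5839.1.S1_at averaged 13.52 ± 0.64 at Rothamsted in 2009, 14.07 ± 0.15 in 2010 and 12.52 ± 0.92 in 2011, and 13.75 ± 0.21 at RAGT in 2010 and 12.60 ± 0.80 in 2011 (SD, 17 or 18 arrays at N200). The 2011 arrays at Rothamsted, between 10.47 and 13.73, all lay below those of 2010, between 13.76 and 14.26. The difference of 2011 minus 2010 was -1.55 at Rothamsted (SE 0.14, adjusted p = 2.93e-18 by limma) and -1.15 at RAGT (SE 0.14, adjusted p = 4.09e-12). Between 2010 and 2009 it was 0.63 (SE 0.084). Every cultivar moved in these directions.

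Ta.2799.1.S1_x_at followed the same course, with 0.39 for 2010 minus 2009 and -0.87 and -0.46 for 2011 minus 2010 at Rothamsted and RAGT. TaAffx.19945.1.S1_at fell by 0.78 on the log2 scale at Rothamsted between 2010 and 2011, where its arrays of 2011 (12.81 to 13.61) lay below those of 2010 (13.83 to 14.17). TaAffx.42864.3.S1_x_at and Ta.355.1.S1_at differed by -0.77 and -0.51 at RAGT. None of these members carries a protein name.

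Other members were higher in 2011. Ta.14442.1.S1_at averaged 13.74 ± 0.15 in 2011 and 12.93 ± 0.28 in 2010 at Rothamsted, a difference of 0.81 (SE 0.083, adjusted p = 4.13e-16 by limma). At RAGT it averaged 13.76 ± 0.18 in 2011 and 13.16 ± 0.18 in 2010, a difference of 0.60. Ta.7837.2.S1_x_at differed by 0.74 at Rothamsted and 0.55 at RAGT, Ta.22918.1.S1_x_at by 0.73 and 0.52, and Ta.1549.1.S1_at by 0.72 and 0.49. All 6 cultivars moved upwards in each.

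Ta.28209.1.S1_a_at was lowest and scattered at Rothamsted in 2010. Its mean was 12.60 ± 0.73 at Rothamsted in 2010, beside 13.30 ± 0.87 at Rothamsted in 2009, 13.63 ± 0.18 at RAGT in 2010, 13.81 ± 0.13 at RAGT in 2011 and 13.78 ± 0.18 at Rothamsted in 2011. The difference of 2011 minus 2010 at Rothamsted was 1.18 (SE 0.17, adjusted p = 7.54e-10 by limma). In Rothamsted 2010 at N200 the group mean was 11.54 in Marksman and 13.45 in Xi_19. In 2009 single arrays fell to 10.76 at N200.

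Among the members named by role, the defence proteins with the widest season difference were XIP-I and TTHV. XIP-I (Ta.1200.1.S1_at) differed by 0.24 for 2010 minus 2009 (SE 0.040) and by -0.67 (SE 0.069) at Rothamsted and -0.21 (SE 0.069) at RAGT for 2011 minus 2010. TTHV differed by 0.16, -0.63 and -0.40 in the same comparisons. Both kept these directions under all 3 scalings. The arrays of XIP-I at Rothamsted in 2011 lay at 12.54 to 13.68, and those of 2010 at 13.68 to 14.12, so the groups met at their edges without overlap.

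The amylase and trypsin inhibitors were lower in 2010 than in 2009 in 5 of 5 probe sets (-0.15 to -0.079), but with array medians centred their differences were positive, between 0.024 and 0.090, so no direction is given for them. Profilin was higher in 2011 than in 2010 by 0.30 at Rothamsted and 0.29 at RAGT (SE 0.021 each), under all 3 scalings. Its 18 arrays of 2011 at RAGT, from 13.45 to 13.60, lay above those of 2010, from 13.10 to 13.33. TUBA was lower in 2010 than in 2009 by all 3 scalings, with -0.26 as deposited. The rbcl probe set Ta.24976.1.S1_x_at was higher in 2011 than in 2010 at Rothamsted by 0.27 (SE 0.030), and under the other scalings by 0.085 and 0.21.

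Site differences were found in 2010 and hardly in 2011. In 2010, 79 members differed between RAGT and Rothamsted at N200, 40 higher and 39 lower at RAGT, where 30.5% of all probe sets passed, 15.9% higher and 14.6% lower. In 2011, 4 members passed, all higher at RAGT, where 5.82% of all probe sets passed and 4.17% were higher. The site difference changed between the years in 48 members, where 29.4% of all probe sets passed that test. Fewer members passed each of these site tests with the replicate number as a block, as the last section gives. With array medians centred 31.9% of the members that passed in 2010 were higher at RAGT, and with quantile normalization 64.9%, against 50.6% as deposited.

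In 2010 Ta.28209.1.S1_a_at was higher at RAGT by 1.04 (SE 0.17, adjusted p = 8.99e-07 by limma), and its lowest array there, 13.28, lay above the Rothamsted median of 12.61. The member wci was higher at RAGT by 0.48 (SE 0.061), Ta.28695.3.S1_x_at by 0.42 (SE 0.065) and Ta.22918.1.S1_x_at by 0.39 (SE 0.049). Ta.154.1.S1_a_at was lower at RAGT, with a difference of -0.75 (SE 0.059, adjusted p = 4.10e-19), and its arrays ran from 12.63 to 13.72 at RAGT and from 13.65 to 14.33 at Rothamsted. Ta.20517.1.S1_a_at (-0.49), TaAffx.120246.1.S1_x_at (-0.44) and Ta.154.5.S1_x_at (-0.42) were lower too. Each of these moved in the same direction in 6 of 6 cultivars.

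In 2011 the site difference did not pass for Ta.154.1.S1_a_at or Ta.28209.1.S1_a_at by limma. It was -0.023 (SE 0.059, adjusted p = 0.88) for Ta.154.1.S1_a_at and 0.031 (SE 0.17, adjusted p = 0.95) for Ta.28209.1.S1_a_at. In Ta.154.1.S1_a_at both sites had the level in 2011 that RAGT had in 2010, with means of 13.20 at RAGT in 2011, 13.22 at Rothamsted in 2011 and 13.22 at RAGT in 2010, while Rothamsted in 2010 had 13.96. XIP-I was lower at RAGT in 2010 (-0.31, SE 0.069, adjusted p = 0.00024) and did not pass in 2011 (0.15, SE 0.069, adjusted p = 0.21). The change between the years was 0.46 (SE 0.098, adjusted p = 0.00017 by limma).

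The 4 members higher at RAGT in 2011 were Ta.22918.1.S1_x_at (0.18), TCTP (0.094), WMAI-1 (0.074) and the THI1.1 probe set Ta.23967.1.S1_x_at (0.066), each in 6 of 6 cultivars. With any 1 replicate left out none of the members passed by limma, whereas array weights brought 34 past the threshold and a fit on the compared arrays alone 20. No share over all probe sets is set beside these refitted counts, so they do not show whether the members moved apart from the rest. Ta.22918.1.S1_x_at and TCTP were also higher at RAGT in 2010, by 0.39 and 0.073, and only 2 members passed in both years with the same direction.

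**Figure D5:**
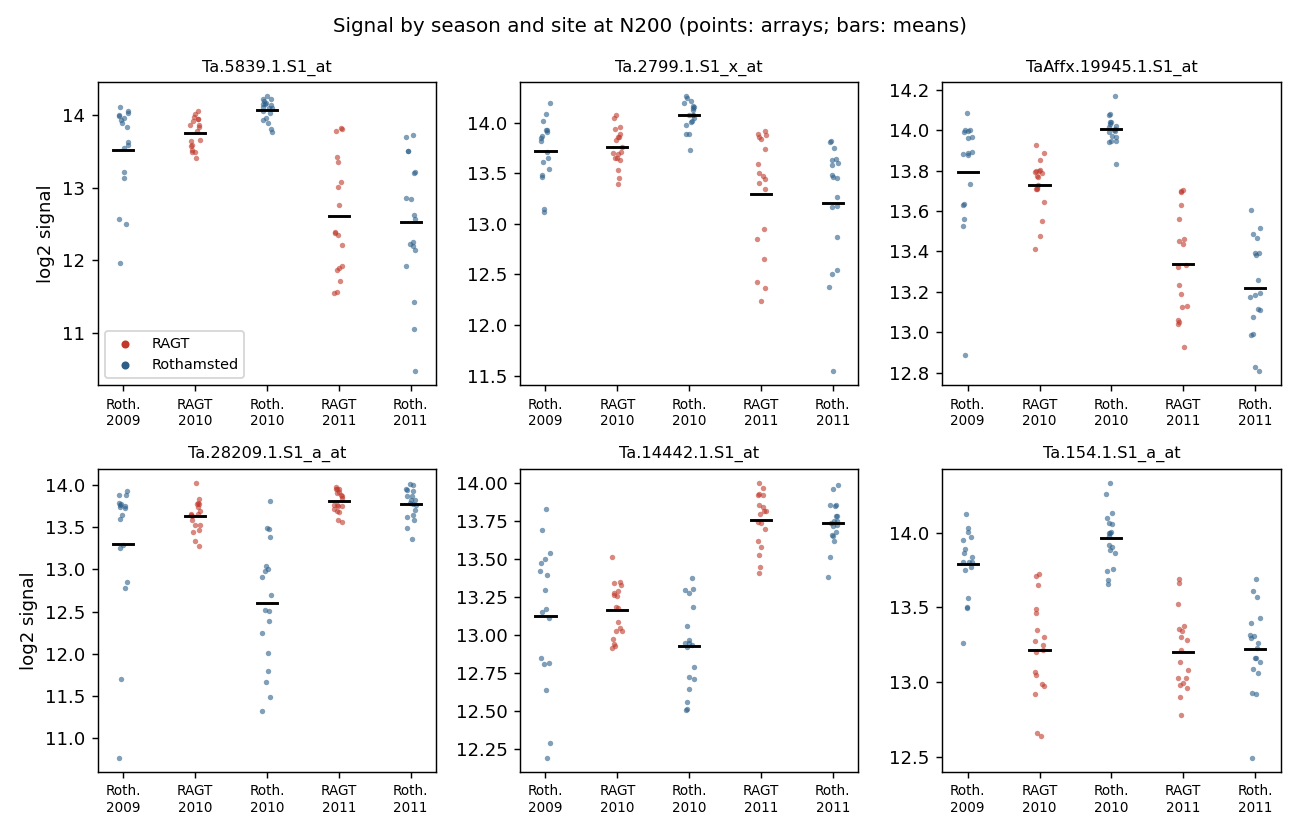
Log2 signal (vertical axis, a scale for each panel) of 6 members at N200 in the 5 environments in order of year (horizontal axis), with 1 point per array (17 or 18 an environment), RAGT in red, Rothamsted in blue and black bars for means. Ta.5839.1.S1_at, Ta.2799.1.S1_x_at and TaAffx.19945.1.S1_at are low in 2011, Ta.14442.1.S1_at is high in 2011, Ta.28209.1.S1_a_at is low at Rothamsted in 2010, and Ta.154.1.S1_a_at is high at Rothamsted in 2009 and 2010.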

How the data were processed

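Total RNA of caryopses was hybridised to Affymetrix wheat arrays. The authors deposited a log2 signal for each probe set and array, computed with RMA per the submitters' processing notes. The sources used here give neither its version nor whether the arrays were normalized as one set. Values ran from 1.59 to 15.06. Groups follow the labels, and 110 controls with IDs starting AFFX were left out. The members, gene lists and tests were chosen with earlier results of these data known.

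limma 3.58.1 in R 4.3.3 fitted a mean to each of 54 groups, and p-values were adjusted by Benjamini and Hochberg over 61178 probe sets. The number of arrays limits the precision. Named were the 10 highest members, those with a protein name, up to 4 called members per direction and contrast, 5 for each F test, the 5 steadiest and 5 widest, and 3 on each side of the limit. A few others were named after their values were seen. Gene names come from the array's annotation and RefSeq synonyms, and positions and sequences were not used here. The fit was tested on simulated data. Alternatives were a replicate block, only the compared arrays, other scalings, a mean filter, an intensity trend, array weights, single seasons, each replicate left out and plain probe sets. Leaving out 5 arrays with a deviation over 0.3, and 1 Malacca array, was added after seeing the data. The labels call arrays of a group biological replicates.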

Additional observations from a re-analysis of the deposited data

Results flagged for a closer look

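These results differ between groups by a test of the difference itself (an interaction term of limma, adjusted over 61178 probe sets). Groups held at most 3 arrays, so single arrays were not tested against their group.

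The N350 minus N100 response, 2010 minus 2009, passed in 17 members, or 11.3% of them. Over all probe sets 0.69% passed, over those whose mean reached 6 1.37%, and over ranks 151 to 300 8%. The values of the named members were 0.38 for Ta.23896.1.S1_at, 0.37 for Ta.28312.1.S1_at, 0.36 for Ta.28312.1.S1_x_at and 0.22 for Ta.6175.1.S1_at. They were -0.66 for Ta.10170.1.S1_at, -0.33 for Ta.1411.1.S1_s_at, -0.30 for Ta.22918.1.S1_x_at and -0.19 for Ta.2446.2.S1_at. Each response ran the same way in both seasons and was larger in 2010.

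The RAGT minus Rothamsted difference, 2011 minus 2010, passed in 48 members, or 32% of them. Over all probe sets 29.4% passed, and over those whose mean reached 6 the share was 41.7%. The count is thus near or below these shares, and it was lower with the replicate number as a block. The change of the site difference was 0.72 for Ta.154.1.S1_a_at, 0.54 for Ta.20517.1.S1_a_at, and 0.46 and 0.45 for the XIP-I probe sets Ta.1200.1.S1_at and Ta.1200.1.S1_x_at. It was -1.01 for Ta.28209.1.S1_a_at, -0.49 for Ta.28695.3.S1_x_at, -0.37 for Ta.27117.2.S1_a_at and -0.36 for Ta.10170.1.S1_at.

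The nitrogen response differed between cultivars in 2 members, Ta.6175.1.S1_at and Ta.6175.1.S1_x_at, where the widest gap between cultivars was 0.50 and 0.49. Over all probe sets 0.0212% passed.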

How the results depend on the processing

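Of 1464 comparisons of 116 named results with an alternative, 1322 kept direction and side of the threshold, 116 fell short of it, 18 newly passed and 8 changed sign. The 8 belong to small differences of N350 minus N100 that passed no test: Ta.24976.1.S1_x_at at -0.0030 (medians centred), -0.0032 (array weights), -0.016 (without replicate 2) and -0.0032 (2010 alone), TaAffx.128414.1.A1_x_at at 0.011 (without replicate 1) and 0.0074 (2009 alone), and TTHV at -0.015 (without replicate 1) and -0.0013 (without replicate 3). Over the 3 replicates left out these probe sets ran from -0.016 to 0.021, from -0.035 to 0.011 and from -0.015 to 0.087.

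Counts of members that moved by over 1.5 times are given next, and the cause was not tested unless fewer arrays enter. Most counts from these refits, here and above, have no share over all probe sets beside them. They do not show whether the members moved apart from the rest of the array. The deviations of arrays from different groups of one environment correlated with a mean r of 0.13 for the same replicate number (553 of 1036 pairs over 0.1) and -0.062 for different numbers (642 of 2072). Deviations cancel within a group, so a positive mean for equal numbers goes with a negative mean for different ones. Pairs with the same number ran from -0.73 to 0.84. No label ties the numbers to a shared block, so they were not used as pairs in the main fit. With the number as a block the counts were 72 for season at RAGT, 41 for site in 2010, 0 for site in 2011 and 15 for the change of the site difference. Season 2009 alone gave 5 for N350 and 4 for N200 against N100, and 2010 alone gave 3 for N350 against N200. Array weights gave 1 for N350 against N200, 34 for site in 2011, 76 for the change of the site difference and 6 for nitrogen by cultivar. Only the compared arrays gave 20 for site in 2011, 4 for nitrogen by season and 0 for nitrogen by cultivar. Centred medians gave 8 for site in 2011 and 0 for nitrogen by cultivar, and a mean of at least 6 gave 8 for site in 2011. Without the 5 arrays of high deviation nitrogen by cultivar gave 10. Plain probe sets (no suffix x_at, s_at or a_at) gave 12 for site in 2011, 1 for nitrogen by cultivar, a median SD of group means of 0.23 and 14 members within 1 of the ceiling.

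Without 1 replicate the counts ran from 55 to 76 for N350 against N100, 41 to 66 for N200 against N100, 0 to 8 for N350 against N200, 66 to 77 for cultivars, 43 to 57 for site in 2010, 1 to 27 for nitrogen by season, 25 to 29 for the change of the site difference and 0 to 12 for nitrogen by cultivar, and were 0 for site in 2011. Without the Malacca RAGT 2010 replicate 1 array they were 85 for N350 and 78 for N200 against N100, 80 for site in 2010, 46 for the change of the site difference and 109 for cultivars.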
